A study of Mus musculus with 17 samples.

Results

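Gsta1, Gsta2, Gsta3 and Gsta4 encode the alpha-class glutathione transferases named in the gene annotation of mouse, and they were followed here in hepatocytes that had or lacked the transcriptional coactivators Yap and Taz and that had or had not been exposed to carbon tetrachloride (CCl4). They were taken by symbol from the table of gene counts, and all 4 were found among its 23461 genes and passed the filter on low counts. RNA was sequenced from hepatocytes sorted by FACS from male mice aged 2 to 3 months. The groups were wild type untreated (n = 5), wild type CCl4 (n = 5), Yap/Taz knockout untreated (n = 4) and Yap/Taz knockout CCl4 (n = 3). CCl4, a solvent toxic to the liver, was given as 7 doses of 1 ug/g spaced 3 days apart, and the cells were collected 3 days after the last dose. The labels give neither the alleles of the knockout nor what drove the deletion, no vehicle is named for the untreated groups, and they do not say that each sample came from its own animal, so p-values measure the spread between these samples.

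Glutathione transferases join glutathione to reactive, electron-poor compounds, which are then pumped out of the cell and trimmed to mercapturic acids. Alpha-class enzymes are abundant in hepatocytes and also reduce lipid hydroperoxides. CCl4 is turned by Cyp2e1 into radicals that start the peroxidation of membrane lipids, and the aldehydes formed by peroxidation are substrates of the class. Genes of the class are known targets of the oxidant-sensing factor NRF2 and of the aryl hydrocarbon receptor.

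Gsta4 (ENSMUSG00000032348), Gsta1 (ENSMUSG00000074183) and Gsta2 (ENSMUSG00000057933) lie side by side on mm10 chromosome 9, at 78182774 to 78209349 on the plus strand, 78230656 to 78242684 on the plus strand and 78331018 to 78355788 on the minus strand. Gsta3 (ENSMUSG00000025934) lies apart on chromosome 1, at 21240589 to 21265661 on the plus strand. Between Gsta1 and Gsta2 the annotation places 2 further protein-coding copies, Gm3776 (78257129 to 78269166) and Gm10639 (78289923 to 78305525), of which Gm10639 has a row in the table and Gm3776 is not analysed here. The stretches below run over coding bases 451 to 510 of Gsta1 and the bases aligned to them (transcripts of GENCODE on GRCm38, the assembly named mm10). Among codon-aligned stretches of this length, this one was picked because Gsta1 and Gsta2 differ most in it. It therefore overstates how much that pair differs over the whole coding sequence. Capitals mark bases that differ from Gsta1.
Gsta1: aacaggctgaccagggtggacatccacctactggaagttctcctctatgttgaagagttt
Gm3776: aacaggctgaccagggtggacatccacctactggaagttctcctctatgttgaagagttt
Gm10639: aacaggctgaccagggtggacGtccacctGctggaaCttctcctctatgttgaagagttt
Gsta2: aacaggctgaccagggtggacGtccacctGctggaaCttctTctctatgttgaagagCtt
Gsta3: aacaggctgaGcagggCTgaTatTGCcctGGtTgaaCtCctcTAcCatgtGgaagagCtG
Gsta4: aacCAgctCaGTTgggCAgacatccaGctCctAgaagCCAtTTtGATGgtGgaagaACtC

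Over this stretch Gm3776 had 0 differences from Gsta1, Gm10639 had 3, Gsta2 had 5, Gsta3 had 18 and Gsta4 had 24. Over the whole aligned coding sequence Gsta1 and Gm3776 were 99.7% identical, with 2 of 669 columns differing, and Gsta1 and Gsta2 were 97.6% identical, with 16 columns differing. Gsta3 and Gsta4 were 65.6% identical to each other, and Gsta1 was 73.4% identical to Gsta3 and 65.5% to Gsta4. Of the 826 words of 50 bases in the Gsta1 transcript, 89.7% also occurred in the transcript of another gene, 82.9% in that of Gm3776 and 44.6% in that of Gsta2. The share was 64.2% for Gsta2, and 0 of 1408 and 0 of 928 words were shared for Gsta3 and Gsta4. With words of 100 bases the shares were 81.8% for Gsta1 and 35.02% for Gsta2. How the authors' counting treated reads that match several genes is not given in the sources used here, so counts of Gsta1, Gsta2 and Gm10639 may be divided among the copies, and the row called Gsta1 could hold reads of Gm3776. Gsta1 and Gsta2 were therefore also fitted as a sum.

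Promoter windows of Gsta1, Gsta2 and Gsta3 were found in the RefSeq table on GRCm38.p6, and the 160 bases from 140 before to 20 after each annotated start are printed because the first pair of genes has closely similar windows and different values below. Capitals mark matches to the searched motifs.
Gsta1, chr9:78230529-78230688, plus strand: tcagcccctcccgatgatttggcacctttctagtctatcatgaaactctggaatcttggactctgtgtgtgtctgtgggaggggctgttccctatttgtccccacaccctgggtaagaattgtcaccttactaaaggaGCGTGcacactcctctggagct
Gsta2, chr9:78347126-78347285, minus strand: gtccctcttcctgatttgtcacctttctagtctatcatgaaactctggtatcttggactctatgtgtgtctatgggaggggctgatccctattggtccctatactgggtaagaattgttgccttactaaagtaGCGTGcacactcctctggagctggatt
Gsta3, chr1:21240445-21240604, plus strand: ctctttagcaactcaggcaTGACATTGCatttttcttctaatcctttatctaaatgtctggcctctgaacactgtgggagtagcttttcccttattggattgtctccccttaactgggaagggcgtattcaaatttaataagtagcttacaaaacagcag

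The full windows of 300 bases, which run from 250 before to 50 after the start, were searched on both strands for 3 motif cores. The core of the antioxidant response element that NRF2 binds, TGACNNNGC, was found in the Gsta3 window, 121 bases before the start. The core of the aryl hydrocarbon receptor element, GCGTG, was found in the Gsta1 and Gsta2 windows, 2 and 7 bases before the start. The RefSeq start of Gsta2 lies inside the gene span given above, whose upstream end on the minus strand is 78355788. Its offset therefore holds for the RefSeq start only. The core of the element bound by the TEAD partners of Yap and Taz, GGAATG, was in none of the 3 windows. Over all 32851 windows of the table, 12.4% held TGACNNNGC, 32.4% held GCGTG and 14.7% held GGAATG, and the matches describe these windows only. The Gsta1 and Gsta2 windows were 74.0% identical, and those of Gsta1 and Gsta3 46.7%.

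Totals per library ran from 11266420 to 24775863 counts. The targeted genes were low in the knockout, with mean levels of 51.3, 55.1, 3.50 and 1.37 CPM (counts scaled to library size) for Yap1 and 12.8, 19.6, 1.87 and 4.76 CPM for Wwtr1, the gene of Taz, in the untreated and CCl4 groups of wild type and then of the knockout. Summed CPM of 11 hepatocyte markers ran from 97679 to 155202 over all libraries. Summed macrophage markers (12 of 12 in the table) ran from 1.92 to 17.5 CPM in untreated wild type, 11.3 to 110 in wild type CCl4, 0.342 to 9.05 in knockout untreated and 85.7 to 4039 in knockout CCl4. Summed endothelial markers (10 of 10) ran from 7.76 to 52.3, 31.5 to 170, 18.2 to 32.7 and 99.2 to 698 CPM in the same order. Stellate and fibroblast markers (10 of 10) ran from 3.64 to 18.9, 16.5 to 69.6, 6.70 to 10.4 and 79.7 to 194 CPM, with Acta2 at 0 in both untreated groups and Pdgfrb at 0 in knockout untreated. All 12 macrophage markers were called higher after CCl4 in the knockout (edgeR adjusted p under 0.05), and 4 of 11 hepatocyte markers were called lower. Of all genes tested, 12.1% were called higher there and 6.96% lower. After CCl4 in wild type, 0 of 12 macrophage, 2 of 10 endothelial and 1 of 8 tested stellate and fibroblast markers were called higher, against 0.576% of all genes tested. Mitochondrially encoded genes held 30.7% of counts in wild type untreated replicate 5 and 34.3% in knockout CCl4 replicate 3, against at most 20.1% elsewhere. Markers of macrophages and other cells moved with CCl4, and their part in the differences below was not tested. In bulk RNA, fewer cells of a type and less RNA per cell cannot be told apart.

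Gsta1 was higher after CCl4 in both genotypes, lower in untreated knockout than in untreated wild type, and higher in knockout than in wild type after CCl4. Of these Gsta1 calls, only the rise after CCl4 in the knockout held in every fit that left out 1 library. The sum of Gsta1 and Gsta2 was called in that comparison alone. Gsta3, which had by far the most counts of the class, was lower in untreated knockout and did not pass the test in any other comparison. Gsta4 was higher after CCl4 in the knockout. Gsta2 passed no test in any comparison. Levels are CPM on library sizes scaled by TMM (trimmed mean of M values), differences are on the log2 scale with their standard error, and the threshold for a call was an adjusted p of 0.05 in edgeR's quasi-likelihood test over 13721 genes. Statements below that all libraries of a group lay above or below another group describe the named gene only. The share of all genes tested that separate in this way was not counted.

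**Figure D1:**
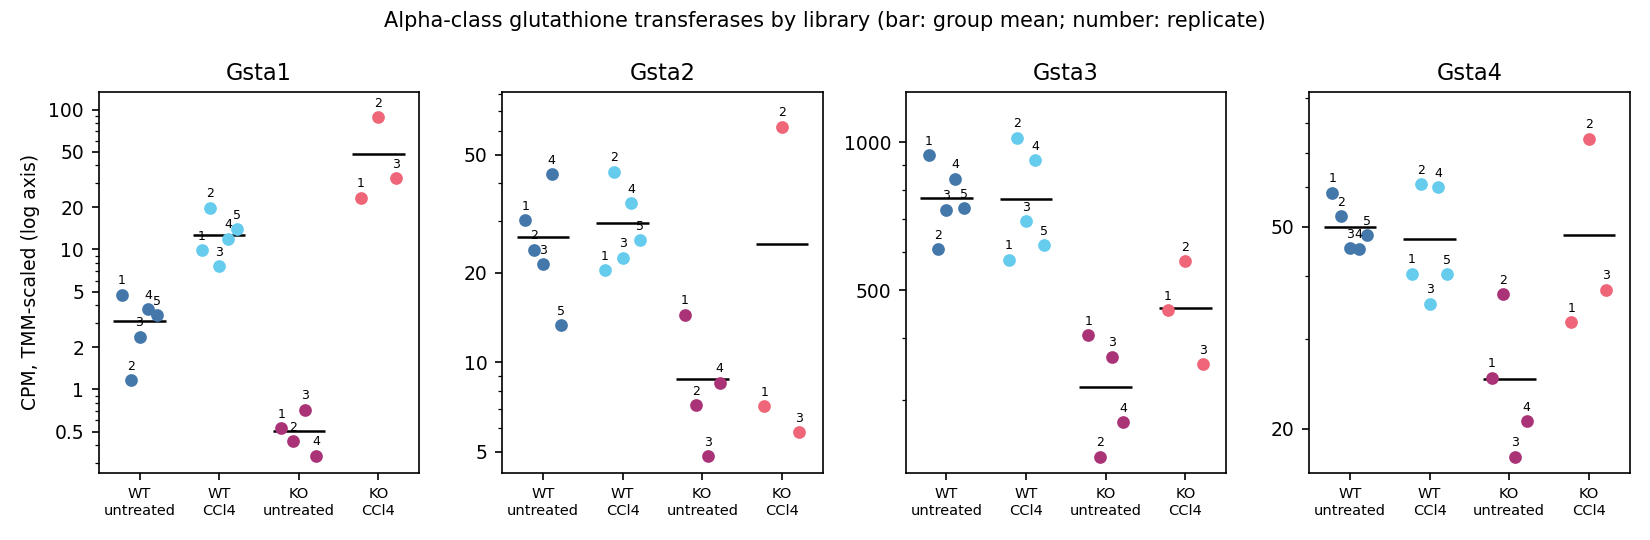
Levels of the 4 genes in each of the 17 libraries, in CPM on a log axis, with 1 panel per gene, the replicate number beside each point and a bar at the group mean. Gsta1 is lowest in the 4 untreated knockout libraries and highest in the 3 knockout CCl4 libraries, and knockout CCl4 replicate 2 is the highest library for Gsta1, Gsta2 and Gsta4.

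Per kilobase of the coding transcript used above, the order in wild type untreated was Gsta3 at 529 ± 86.9 CPM per kilobase (SD, n = 5), Gsta4 at 51.1 ± 5.69, Gsta2 at 30.3 ± 12.7 and Gsta1 at 3.53 ± 1.56. The ranges of Gsta4 and Gsta2 overlapped there, and those of the other neighbours in the order did not. In wild type CCl4 the order was the same, with Gsta1 at 14.5 ± 5.34 CPM per kilobase and the ranges of Gsta4 and Gsta2 again overlapping. In untreated knockout the means were 218 ± 56.1 for Gsta3, 25.7 ± 8.62 for Gsta4, 10.1 ± 4.73 for Gsta2 and 0.573 ± 0.186 for Gsta1 (n = 4), and no neighbours overlapped. In knockout CCl4 Gsta1 ranked second by its mean of 54.7 ± 39.9 CPM per kilobase (n = 3), after Gsta3 at 316 ± 75.1, but its range overlapped those of Gsta4 (49.4 ± 23.6) and Gsta2 (28.8 ± 36.9). All these levels divide by the whole transcript length. Of the words of 50 bases, 85 of 826 occurred only in Gsta1, against 294 of 821 for Gsta2 and all for Gsta3 and Gsta4. If reads matching several genes were left uncounted, Gsta1 and Gsta2 are understated and the order could differ, which was not tested. Summed over the 4 genes, the class held 850 ± 136 CPM in wild type untreated, 855 ± 218 in wild type CCl4, 352 ± 79.5 in knockout untreated and 582 ± 192 in knockout CCl4, and Gsta3 made up most of each sum.

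Gsta3 encodes the subunit known in mouse liver for conjugating the epoxide of aflatoxin. It stood at 940, 606, 729, 843 and 734 CPM in wild type untreated replicates 1 to 5. In untreated knockout it stood at 405, 230, 367 and 270 CPM in replicates 1 to 4. Every untreated knockout library was below every untreated wild type library, and the fitted difference was -1.28 ± 0.22 on the log2 scale, or 2.42-fold lower (edgeR adjusted p = 0.00587). Over all genes tested, 0.35% were called lower in that comparison and 0.583% higher. Gsta3 remained called lower there in each fit that left out 1 library, with differences from -1.42 to -1.15, but scaling by library totals alone gave -1.11 (adjusted p = 0.113).

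After CCl4 wild type hepatocytes had 578, 1021, 691, 919 and 618 CPM of Gsta3 in replicates 1 to 5, a range that spans the untreated one. The difference was -0.01 ± 0.20 on the log2 scale (adjusted p = 0.990). Knockout CCl4 libraries had 456, 573 and 354 CPM in replicates 1 to 3, of which the lowest fell inside the range of untreated knockout. The fitted difference of 0.54 ± 0.25 was not called (adjusted p = 0.151). All 3 knockout CCl4 libraries lay below all 5 wild type CCl4 libraries, and how many of all genes do so was not counted. The difference of -0.73 ± 0.24 missed the threshold (adjusted p = 0.0604). It was called without knockout CCl4 replicate 2 (-0.92, adjusted p = 0.0478) or wild type CCl4 replicate 1 (-0.82, adjusted p = 0.0495). The effects of CCl4 in the 2 genotypes differed by 0.55 ± 0.32, which was not called (adjusted p = 0.411).

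Gsta4 encodes the subunit known for conjugating hydroxynonenal and related aldehydes of lipid peroxidation. It stood at 58.4, 52.5, 45.4, 45.3 and 48.1 CPM in wild type untreated replicates 1 to 5 and at 40.4, 60.7, 35.3, 59.9 and 40.3 CPM in wild type CCl4 replicates 1 to 5. These ranges overlapped, and the difference was -0.08 ± 0.24 on the log2 scale (adjusted p = 0.925). Untreated knockout libraries had 25.2, 36.8, 17.6 and 20.7 CPM in replicates 1 to 4, each below every untreated wild type library. The difference of -0.995 ± 0.26 was not called (adjusted p = 0.103), though it was without untreated knockout replicate 2 (-1.24, adjusted p = 0.0422) or without knockout CCl4 replicate 2 (-0.99, adjusted p = 0.0371), a library outside that comparison that enters the shared estimate of the spread.

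In knockout CCl4 Gsta4 stood at 32.5, 74.7 and 37.6 CPM in replicates 1 to 3. Replicates 2 and 3 were above every untreated knockout library and replicate 1 was inside their range. Gsta4 rose by 0.95 ± 0.29 on the log2 scale after CCl4 in the knockout (edgeR adjusted p = 0.0303), in a comparison where 12.1% of all genes tested were called higher and 6.96% lower. Without knockout CCl4 replicate 2 the difference was 0.48 (adjusted p = 0.280), and the call was also lost without untreated knockout replicate 1, 3 or 4 (0.95, 0.81 and 0.87, adjusted p = 0.0595, 0.0879 and 0.0819) and in a fit of the compared groups alone (0.96, adjusted p = 0.142). After CCl4 the genotypes differed by 0.03 ± 0.28 (adjusted p = 0.963), with overlapping ranges. The effects of CCl4 differed between genotypes by 1.03 ± 0.38, which was not called (adjusted p = 0.171).

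Gsta1 encodes an inducible subunit that had the fewest counts of the class in wild type untreated hepatocytes. It stood at 4.74, 1.17, 2.39, 3.76 and 3.40 CPM in wild type untreated replicates 1 to 5 and at 9.91, 19.9, 7.60, 11.9 and 13.97 CPM in wild type CCl4 replicates 1 to 5. The ranges did not overlap, and Gsta1 rose by 2.04 ± 0.39 on the log2 scale, or 4.10-fold (edgeR adjusted p = 0.0191). In this comparison 0.576% of all genes tested were called higher and 0.277% lower. The call was lost without wild type untreated replicate 3 (1.95, adjusted p = 0.0680) or wild type CCl4 replicate 2 (1.82, adjusted p = 0.0543), in limma voom (2.08, adjusted p = 0.0685) and with the replicate number as a block (1.94, adjusted p = 0.0742).

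In untreated knockout Gsta1 had 12, 5, 13 and 4 counts in replicates 1 to 4, or 0.527, 0.428, 0.714 and 0.335 CPM. All 4 libraries were below the lowest untreated wild type library, which had 14 counts. The difference was -2.56 ± 0.50 on the log2 scale, or 5.89-fold lower (edgeR adjusted p = 0.0165). The call was lost without untreated knockout replicate 1, 2 or 4 (-2.57, -2.49 and -2.43, adjusted p = 0.0713, 0.0585 and 0.0716). It was also lost in limma voom without and with sample weights (-2.39 and -2.36, adjusted p = 0.534 and 0.255) and with the replicate number as a block (-2.51, adjusted p = 0.0658).

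In knockout CCl4 Gsta1 had 392, 2458 and 410 counts in replicates 1 to 3, or 23.4, 87.9 and 32.3 CPM. Each of these libraries was above every other library of the study. Gsta1 rose by 6.52 ± 0.56 on the log2 scale after CCl4 in the knockout, or 91.7-fold (edgeR adjusted p = 7.09e-06). The rise was called in every fit that left out 1 library, with differences from 5.73 to 6.84, the lowest without knockout CCl4 replicate 2. Summed macrophage markers in knockout CCl4 replicates 1 to 3 were 85.7, 232 and 4039 CPM, all above the 0.342 to 9.05 CPM of untreated knockout, and their part in the rise was not tested.

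After CCl4 the knockout exceeded wild type in Gsta1 by 1.92 ± 0.41 on the log2 scale, or 3.80-fold (edgeR adjusted p = 0.00680). In that comparison 7.62% of all genes tested were called higher and 4.21% lower. Without knockout CCl4 replicate 2 the difference was 1.13 (adjusted p = 0.0794). The test of the difference itself gave an effect of CCl4 larger in the knockout by 4.48 ± 0.65 (edgeR adjusted p = 0.0204), in a comparison where 0.794% of genes were called higher and 0.299% lower. That call was lost without any 1 of 5 libraries: wild type untreated replicate 4, wild type CCl4 replicates 4 and 5, and untreated knockout replicates 1 and 4 (4.40, 4.46, 4.52, 4.50 and 4.35, adjusted p = 0.0576, 0.0545, 0.0517, 0.0598 and 0.0548). It was also lost in limma voom without and with sample weights (4.17 and 4.07, adjusted p = 0.112 and 0.130) and with the replicate block (4.41, adjusted p = 0.0572).

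**Figure D2:**
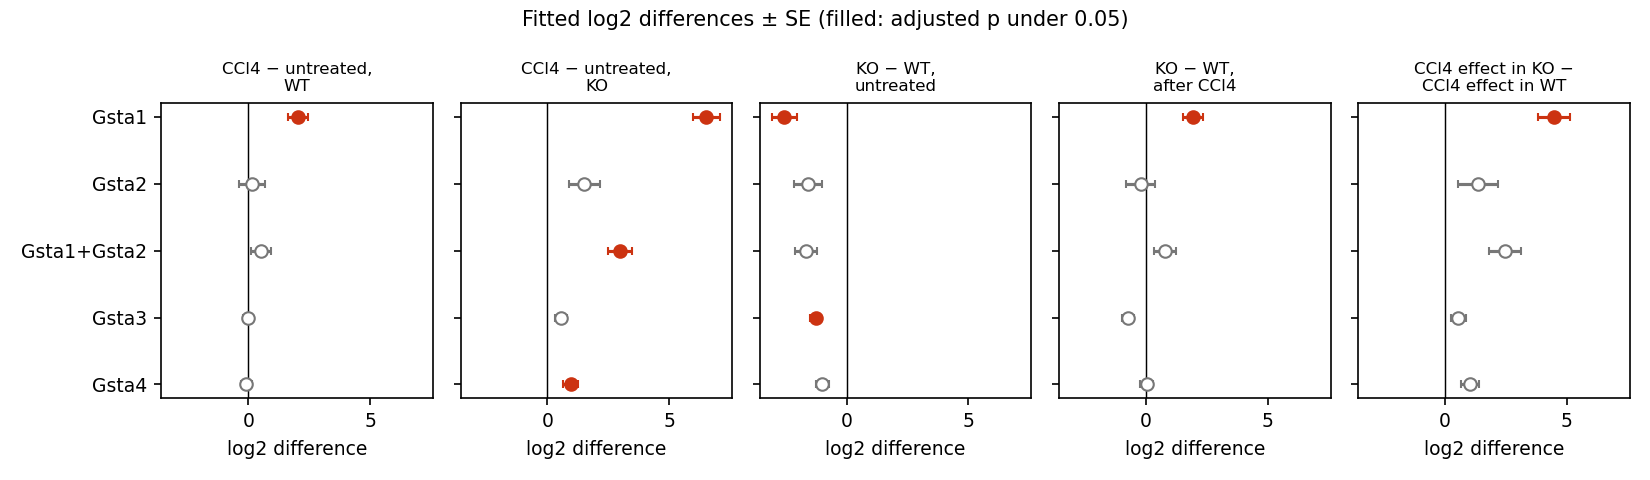
Fitted log2 differences (x axis) with standard errors for the 4 genes and the sum of Gsta1 and Gsta2 in the 5 comparisons, 1 panel each, filled where the adjusted p is under 0.05. Gsta1 is filled in all 5 panels, Gsta3 only for knockout against wild type in untreated cells (-1.28), and Gsta4 and the sum only for CCl4 in the knockout (0.95 and 2.97).

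Gsta2, the close copy of Gsta1, stood at 30.1, 23.9, 21.4, 43.0 and 13.4 CPM in wild type untreated replicates 1 to 5 and at 20.4, 43.8, 22.5, 34.3 and 25.8 CPM in wild type CCl4 replicates 1 to 5. These ranges overlapped and the difference was 0.15 ± 0.52 on the log2 scale (adjusted p = 0.933). Untreated knockout libraries had 14.5, 7.19, 4.84 and 8.54 CPM in replicates 1 to 4. Replicate 1 was inside the range of untreated wild type and the others were below it, and the difference of -1.58 ± 0.59 was not called (adjusted p = 0.345).

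Knockout CCl4 libraries had 7.12, 62.1 and 5.83 CPM of Gsta2 in replicates 1 to 3. Replicate 2 was above every other library and the other two were inside the range of untreated knockout. The difference after CCl4 in the knockout was 1.52 ± 0.64 on the log2 scale and was not called (adjusted p = 0.116), and its sign rested on replicate 2. Without replicate 2 it was -0.44 (adjusted p = 0.595), and without replicate 1 or replicate 3 it was called (1.95 and 1.98, adjusted p = 0.0358 and 0.0460). The difference between genotypes after CCl4 was -0.22 ± 0.61 (adjusted p = 0.868), and without knockout CCl4 replicate 2 it was -2.18 and called (adjusted p = 0.0102). The difference between untreated genotypes was also called in that fit (-1.58, adjusted p = 0.0450). The effects of CCl4 differed between genotypes by 1.36 ± 0.82, which was not called (adjusted p = 0.428), and by -0.60 without that library.

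Summed, Gsta1 and Gsta2 stood at 34.9, 25.1, 23.8, 46.7 and 16.8 CPM in wild type untreated replicates 1 to 5, and at 30.3, 63.7, 30.1, 46.2 and 39.8 CPM in wild type CCl4 replicates 1 to 5. The difference was 0.51 ± 0.41 on the log2 scale and was not called (adjusted p = 0.616), unlike that of Gsta1 alone. In untreated knockout the sum was 15.02, 7.62, 5.55 and 8.88 CPM in replicates 1 to 4, all below untreated wild type, with a difference of -1.66 ± 0.46 (adjusted p = 0.126) that was called without knockout CCl4 replicate 2 (-1.66, adjusted p = 0.0230). In knockout CCl4 the sum was 30.6, 150.004 and 38.1 CPM in replicates 1 to 3, all above untreated knockout. It rose by 2.97 ± 0.51, or 7.84-fold (edgeR adjusted p = 0.000973), and was called in every fit without 1 library, with differences from 1.88 to 3.33. After CCl4 the genotypes differed in the sum by 0.80 ± 0.46 (adjusted p = 0.292), or by -0.30 without knockout CCl4 replicate 2. The effects of CCl4 differed by 2.46 ± 0.64 (adjusted p = 0.0660), and that difference was called without knockout CCl4 replicate 1 (2.82, adjusted p = 0.0153).

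The composition of the pair, which needs no scaling between libraries, was also compared. Gsta1 made up 13.6, 4.65, 10.03, 8.04 and 20.3% of the pair's counts in wild type untreated replicates 1 to 5. In wild type CCl4 it made up 32.7, 31.2, 25.3, 25.8 and 35.2%. In untreated knockout the shares were 3.51, 5.62, 12.9 and 3.77% in replicates 1 to 4, and in knockout CCl4 they were 76.7, 58.6 and 84.7% in replicates 1 to 3. The widest 95% Wilson interval, which covers counting error only, was 7.68 to 20.8% in untreated knockout replicate 3.

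The mean share was 18.7 percentage points higher after CCl4 in wild type (two-sided exact permutation test, p = 0.00794, 0.0317 after Benjamini-Hochberg adjustment over 4 comparisons) and 66.9 points higher in the knockout (exact p = 0.0286, adjusted 0.0381). Each of these is the smallest p the group sizes allow, and no group of CCl4 libraries overlapped its untreated group. The share was added as a measure after the values of both genes had been seen. Its p-values therefore describe a separation already known and give no independent support to the Gsta1 calls. Between genotypes the share was 43.3 points higher in knockout after CCl4 (exact permutation p = 0.0179, adjusted 0.0357) and differed by -4.87 points in untreated knockout (exact permutation p = 0.214), where the ranges overlapped. Leaving out any 1 of the 7 knockout libraries raised the smallest possible p in the knockout to above 0.05, while the difference stayed between 61.2 and 74.3 points.

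**Figure D3:**
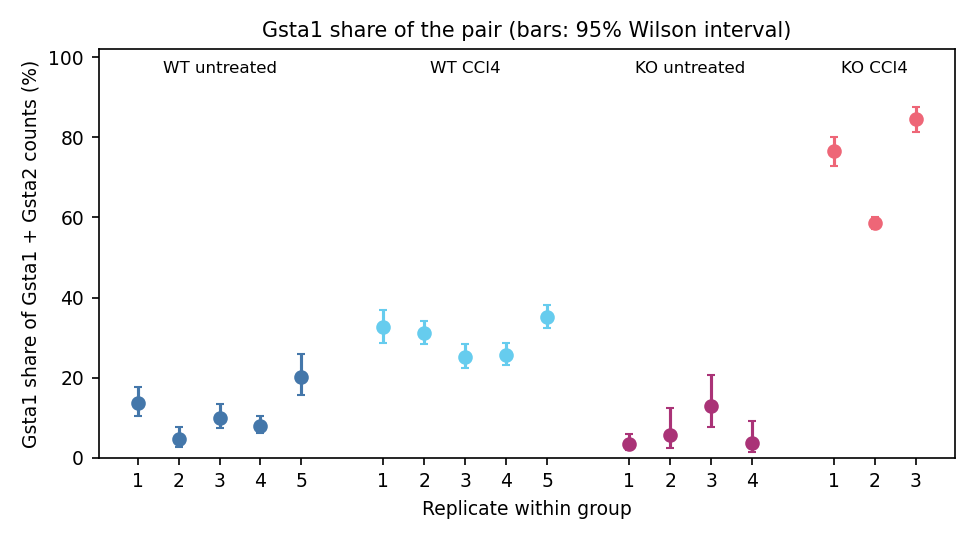
Share of Gsta1 in the summed counts of Gsta1 and Gsta2 in each library, in percent, with 95% Wilson intervals as bars. Untreated libraries lie between 3.51 and 20.3%, wild type CCl4 libraries between 25.3 and 35.2%, and knockout CCl4 libraries between 58.6 and 84.7%.

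Gm10639, the copy that lies between the pair, had 0, 0, 2, 12 and 3 counts in wild type untreated replicates 1 to 5 and 2, 20, 15, 19 and 24 counts in wild type CCl4 replicates 1 to 5. It had 3, 0, 4 and 1 counts in untreated knockout and 17, 147 and 18 counts in knockout CCl4. The rise after CCl4 in the knockout was 4.38 ± 1.11 on the log2 scale (edgeR adjusted p = 0.0104), and the other comparisons were not called. Its coding sequence was 97.0% identical to that of Gsta1 and 98.5% to that of Gsta2, so its reads may belong to either.

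The genes whose levels over the 17 libraries were most like each member were taken by Pearson's r of log2 CPM among 12093 genes with a mean of at least 1 CPM, as a description. Gsta1 was most like Ly6d (r = 0.934), Mfge8 (0.922), Lpl (0.921), Rrm2 (0.916) and Tagln2 (0.914). Gsta2 was most like Pcyt1a (r = 0.838), Exoc4 (0.819), Pstpip2 (0.807), Ankrd28 (0.800) and Pdk1 (0.791). Gsta3 was most like Adh1 (r = 0.875), which encodes an alcohol dehydrogenase, then Mme (0.864), Pctp (0.863), Ugt1a1 (0.860), which glucuronidates bilirubin, and Tdg (0.856). Gsta4 was also most like Adh1 (r = 0.841), followed by Ildr2 (0.795), Gsta2 (0.785), Abhd6 (0.782) and Tmem97 (0.781). No gene was in the top 5 of both Gsta1 and another member. The libraries share groups, depth and scaling, so these values say how levels moved over 4 groups and no more.

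Of 17 other cytosolic transferases tested, 4 were higher and 3 lower after CCl4 in the knockout, where 12.1% of all genes tested were called higher and 6.96% lower, with a list median of 0.04 on the log2 scale against 0.01 for all genes. The mu-class gene Gstm3 rose by 4.08 ± 0.55 (edgeR adjusted p = 0.000326) and the theta-class gene Gstt3 by 1.85 ± 0.30 (0.000689), while Gsto1 fell by 1.06 ± 0.20 (0.00174) and Gstk1 fell by 1.06 ± 0.21 (0.00264). In wild type 1 of the 17 was higher after CCl4, Gstm3 (1.94 ± 0.44, adjusted p = 0.0497), and 1 was lower, the pi-class gene Gstp1 (-1.42 ± 0.19, adjusted p = 0.00215). Of all genes tested, 0.576% were called higher in that comparison and 0.277% lower. None of the 17 was called by edgeR between untreated genotypes (2 higher and 3 lower at an unadjusted p under 0.05, 1 lower by DESeq2, 0 by limma voom). Over all genes DESeq2 called 328 there, 155 of them higher. After CCl4 2 were higher and 3 lower in knockout, where 7.62% of all genes tested were called higher and 4.21% lower, so the 2 higher are close to the background share. Of 5 microsomal transferases and relatives, 3 were higher and 1 lower after CCl4 in the knockout. Mgst3 rose by 1.62 ± 0.36 and Ptges, a prostaglandin E synthase, by 2.46 ± 0.71, Mgst1 fell by 0.98 ± 0.32, and Alox5ap, a partner of leukocyte 5-lipoxygenase, went from 0 counts in 4 libraries to 429 in 3, or at least 161-fold higher against a floor of 3 counts over the untreated group. Between genotypes after CCl4, 2 of the 5 were higher and 1 lower in knockout, against the same 7.62% and 4.21% of all genes tested. Summed macrophage markers were 85.7, 232 and 4039 CPM in knockout CCl4 replicates 1 to 3. Their part in the calls of both transferase lists, Alox5ap included, was not tested.

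Genes that supply glutathione and handle its conjugates were compared next, again in a comparison with 12.1% of all genes tested called higher and 6.96% lower. In lists of this size a single lower gene is close to that background. None of 9 synthesis genes was called higher after CCl4 in the knockout by edgeR, DESeq2 or limma voom (1 at an unadjusted p under 0.05), and 1 was lower, Cbs of the transsulfuration pathway (-0.70 ± 0.20, edgeR adjusted p = 0.0212), with a list median of -0.35. Of 10 genes of glutathione reduction and the glutathione peroxidases, 4 were higher and 1 lower. Pgd, which makes NADPH, rose by 1.34 ± 0.22, Gpx7 by 4.45 ± 0.81 and Gpx3 by 6.64 ± 1.23, and the main hepatic peroxidase Gpx1 fell by 0.97 ± 0.19. Of 12 genes of glutathione breakdown and the mercapturate pathway none was higher, by any of these tools or at an unadjusted p under 0.05, and 5 were lower, among them the N-acetyltransferases Nat8f1 (-2.41 ± 0.32, adjusted p = 0.000272), Nat8 (-2.19 ± 0.38) and Nat8f2 (-0.90 ± 0.21) and the aminoacylase Acy3 (-1.14 ± 0.28), with a list median of -0.77. Of 7 exporters of conjugates 3 were higher, the multidrug resistance proteins Abcc4 (4.83 ± 0.98), Abcc1 (2.87 ± 0.68) and Abcc5 (2.55 ± 0.75), and Abcg2 was lower (-0.71 ± 0.22). In wild type after CCl4, and between untreated genotypes, no tested gene of these 4 lists was called by edgeR. At an unadjusted p under 0.05 there were 2 reduction and peroxidase genes (1 in each direction), 2 breakdown genes (both lower) and 2 exporters (1 in each direction) in wild type, of which DESeq2 called 1 exporter and limma voom none. Between untreated genotypes there were 1 synthesis gene (higher), 2 reduction and peroxidase genes, 2 breakdown genes and 1 exporter (all lower), of which DESeq2 called the breakdown genes and the exporter, and limma voom 1 breakdown gene. Over all genes DESeq2 called 494 for CCl4 in wild type, 319 of them higher, and 328 between untreated genotypes, 155 of them higher.

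Between genotypes after CCl4, where 7.62% of all genes tested were called higher and 4.21% lower, 1 of the 9 synthesis genes was lower in knockout, Cth (-1.15 ± 0.30), and 3 of the 10 peroxidase and reduction genes were higher and 1 lower. Breakdown and mercapturate genes were again lower in 4 of 12 cases, led by Nat8f1 (-2.27 ± 0.31, edgeR adjusted p = 0.000421), and 1 exporter was higher, Abcc5 (3.24 ± 0.71), and 1 lower, Abcg2 (-1.01 ± 0.21). Nat8f1 was called by edgeR for the difference of CCl4 effects (-2.24 ± 0.39, adjusted p = 0.0316). Of all genes tested, edgeR called 0.794% higher and 0.299% lower for that difference. For the same difference DESeq2 called 2 breakdown genes lower, 2 reduction and peroxidase genes higher and 1 lower, and 1 exporter higher. Over all genes DESeq2 called 783 there, 532 of them higher, against 150 by edgeR. Macrophage markers were higher in the same libraries, 12 of 12 called, and their part in these counts was not tested.

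Among 18 factors that regulate the class, which include the gene of NRF2, 1 was called after CCl4 in the knockout, Cebpa (-1.16 ± 0.28, edgeR adjusted p = 0.00874), a hepatocyte transcription factor, while DESeq2 also called 3 higher. With 12.1% of all genes tested called higher by edgeR in that comparison and 6.96% lower, 1 lower gene of 18 is near the background. Over all genes DESeq2 called 2905 there, 1810 of them higher. Keap1, which holds NRF2 in check, was higher in knockout after CCl4 (0.44 ± 0.13, adjusted p = 0.0441). There 7.62% of all genes tested were called higher and 4.21% lower, so 1 higher gene of 18 is again near the background. None of the 18 was called in the other comparisons, by edgeR or DESeq2 (1 at an unadjusted p under 0.05 for CCl4 in wild type, 0 between untreated genotypes and 3 for the difference of effects). Of 17 other targets of NRF2, 7 were higher and none lower after CCl4 in the knockout (2 lower at an unadjusted p under 0.05, 0 by DESeq2), with a list median of 0.57, against 12.1% and 6.96% of all genes tested. All 12 macrophage markers, 9 of 10 endothelial and 7 of 8 tested stellate and fibroblast markers were also higher in that comparison, and their part in this count was not tested. Ptgr1, an alkenal reductase, rose by 2.35 ± 0.26 (adjusted p = 8.62e-05), Srxn1 by 2.34 ± 0.38 and the quinone reductase Nqo1 by 2.69 ± 0.54. Cbr3 rose by 4.83 ± 0.92 (edgeR adjusted p = 0.00178). Pooled over libraries it had 77 counts against 3, a ratio of 28.9. The 95% interval of 9.52 to 143 for that ratio covers counting error only and leaves out the spread between samples. In wild type 1 of the 17 was higher, against 0.576% of all genes tested, Ptgr1 (1.42 ± 0.22, adjusted p = 0.00545), and between untreated genotypes none was called by edgeR or DESeq2 (1 lower at an unadjusted p under 0.05). After CCl4 4 were higher in knockout, against 7.62% of all genes tested, led by Hmox1 (3.88 ± 0.75, adjusted p = 0.00401), the heme oxygenase that macrophages also express. Srxn1 was called for the difference of CCl4 effects (2.22 ± 0.49, adjusted p = 0.0441), where 0.794% of all genes tested were called higher and 0.299% lower.

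Enzymes that clear lipid aldehydes handle some of the substrates of Gsta4. Of 16 tested, 2 were lower in untreated knockout, Adh1 (-1.36 ± 0.21, edgeR adjusted p = 0.00223) and the retinal dehydrogenase Aldh1a1 (-1.53 ± 0.27, adjusted p = 0.00596), and none was higher (0 at an unadjusted p under 0.05 and by DESeq2). Of all genes tested, 0.35% were called lower there and 0.583% higher. After CCl4 in the knockout 2 were higher, the aldo-keto reductases Akr1b10 (5.12 ± 0.93, adjusted p = 0.00137) and Akr1b3 (1.96 ± 0.47, adjusted p = 0.00745), and 2 were lower, Adh5 (-0.75 ± 0.19) and Ptgr2 (-0.81 ± 0.23). In that comparison 12.1% of all genes tested were called higher and 6.96% lower, so the 2 higher are close to the background share. After CCl4 2 were higher and 4 lower in knockout than in wild type, with Aldh1a1 again lower (-1.89 ± 0.30, adjusted p = 0.00127), and none was called in wild type by edgeR or DESeq2 (5 higher and 1 lower at an unadjusted p under 0.05). Shares over all genes tested were 7.62% higher and 4.21% lower between genotypes after CCl4, and 0.576% and 0.277% for CCl4 in wild type.

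**Figure D4:**
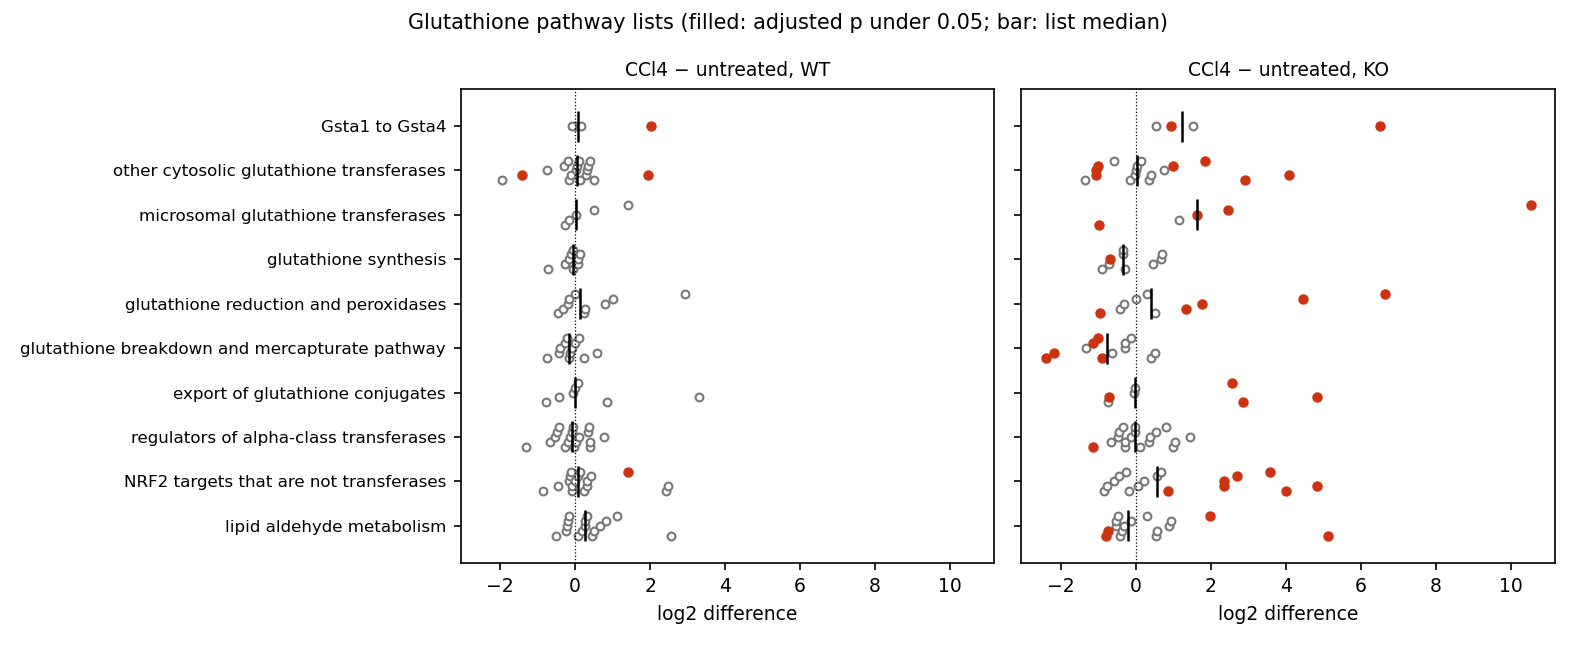
Log2 differences after CCl4 in wild type (left) and knockout (right) for the 4 alpha-class genes and 9 lists of related genes, 1 point per tested gene, filled where the adjusted p is under 0.05, with a bar at each list's median. Gsta1 is at 2.04 on the left and 6.52 on the right, and the point past 10 is Alox5ap, whose fitted value depends on the prior count because it had 0 counts in untreated knockout.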

How the data were processed

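The authors deposited 1 table of whole-number counts per gene, with 1 column for each of 17 samples. STAR 2.4.1d, FastQC, DESeq2, edgeR, limma and the build mm10 are named in the submitters' processing notes. Which tool and annotation counted the reads, and with what strand setting, is not given in the sources used here. Symbols were matched for 22914 of 23461 identifiers. Totals ran from 11266420 to 24775863 counts.

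Counts of all 17 samples were fitted with edgeR 4.0.16 in R 4.3.3, with a mean per group, TMM scaling and filterByExpr (minimum count 10, minimum total 15), which left 13721 genes. Each contrast had edgeR's quasi-likelihood F test with Benjamini-Hochberg adjustment, the source of every adjusted p-value given without a tool. Standard errors are the size of the log2 difference over the square root of F. CPM, counts scaled to library size, are given per library or as mean ± SD. No replicate column looked like a copy of another (lowest chi-square per gene 23.4, over genes with at least 20 counts). The model was tested on simulated data.

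Shares of Gsta1 in the pair were compared by exact permutation tests, a measure added after the values were seen. Sequences came from GENCODE transcripts and RefSeq promoters. Gsta4 was not matched in the promoter table. The named genes are the 4 members, their sum, Gm10639, up to 4 called genes per list and comparison by adjusted p, and the 5 genes most correlated with each member. The members and lists were chosen with earlier results of these data known. Alternatives were no filter, scaling by RLE, by the upper quartile or by library totals alone, at least 1 CPM in 5 samples, DESeq2 1.42.0, limma 3.58.1 voom with and without sample weights, only the compared groups, the replicate number as a block, leaving out libraries over 30% mitochondrial, leaving out mitochondrial genes, and leaving out each library.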

Additional observations from a re-analysis of the deposited data

Results flagged for a closer look

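Gm10639 in wild type untreated replicate 4 stood at 0.884 CPM, from 12 counts, apart from the other 4 libraries of its group, which had 0 to 3 counts. In all, 18 groups of 4 or 5 libraries were checked in this way. The rule sets apart about 1 in 20 groups of independent, normally distributed values. These counts are near 0 and the groups checked include Gsta1, Gsta2 and their sum, so that rate need not hold here.

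The effect of CCl4 on Gsta1 differed between genotypes by 4.48 on the log2 scale in the test of the difference (edgeR adjusted p = 0.0204). Gsta1 was higher after CCl4 in 5 of 5 wild type libraries and in 3 of 3 knockout libraries than in any untreated library of the same genotype, with rises of 2.04 and 6.52.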

How the results depend on the processing

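Differences are log2, with adjusted p in brackets. Of 295 values outside the leave-one-out fits, 266 kept direction and side of the threshold, 10 changed sign, 9 became called and 10 were no longer called. The cause was not tested. Scaling by library totals alone moved the median of all genes by CCl4 in wild type from -0.01 to 0.38 and the number of calls from 117 (79 higher) to 651 (617 higher). It moved the medians to 0.20 for CCl4 in the knockout, 0.14 for untreated knockout and -0.16 for the difference of effects, with 1810 of 2166 calls higher against 1655 of 2610, 92 of 124 against 80 of 128, and 17 of 28 against 109 of 150. With it Gsta3 was at 0.37 and Gsta4 at 0.31 for CCl4 in wild type, and Gsta3 at -1.11 (0.113) for untreated knockout. Gsta3 for CCl4 in wild type was also at 0.0177 with upper-quartile scaling and 0.0211 with no filter.

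DESeq2 called Gsta4 and the pair in untreated knockout (-0.99 and -1.66, adjusted p = 0.0179 and 0.0101), Gsta3 in knockout after CCl4 (-0.71, adjusted p = 0.0292) and the pair for the difference of CCl4 effects (2.48, adjusted p = 0.00647). In limma voom Gsta1 was no longer called for CCl4 in wild type (2.08, adjusted p = 0.0685), untreated knockout (-2.39, adjusted p = 0.534) or the difference of effects (4.17, adjusted p = 0.112), and Gsta4 in knockout after CCl4 was at -0.0325. With sample weights Gsta1 was not called in untreated knockout (-2.36, adjusted p = 0.255) or for the difference (4.07, adjusted p = 0.130), Gsta4 and the pair were called in untreated knockout (-1.25 and -1.80, adjusted p = 0.00417 and 0.0330), and Gsta4 in knockout after CCl4 was at -0.0039. With the compared groups alone Gsta4 was not called for CCl4 in the knockout (0.96, adjusted p = 0.142).

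Per the labels, replicate numbers pair no samples. Deviations of same-numbered libraries correlated at -0.13 to 0.0494 for CCl4 in wild type (0 of 5 most like their own number), -0.0818 to -0.00299 for CCl4 in the knockout (0 of 3), -0.0423 to 0.20 for untreated knockout (1 of 4) and -0.24 to 0.00686 for knockout after CCl4 (0 of 3). With the replicate number as a block, Gsta1 was not called for CCl4 in wild type (1.94, adjusted p = 0.0742), untreated knockout (-2.51, adjusted p = 0.0658) or the difference (4.41, adjusted p = 0.0572), Gsta4 was called in untreated knockout (-1.09, adjusted p = 0.0348) and stood at -0.0560 in knockout after CCl4. With the block, calls went from 117 to 49 for CCl4 in wild type, from 1622 to 867 for knockout after CCl4 and from 150 to 3 for the difference.

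Without the libraries over 30% mitochondrial, Gsta2 was at -0.0124 for CCl4 in wild type, 1.98 (0.0392) for CCl4 in the knockout and 0.25 for knockout after CCl4, and the Gsta1 share of the pair was 61.2 points higher after CCl4 in the knockout (exact permutation p = 0.0667, the smallest possible). Without mitochondrial genes Gsta3 was called in knockout after CCl4 (-0.78, adjusted p = 0.0485) and Gsta4 there was at -0.0206. The difference of CCl4 effects had 783 calls with DESeq2, 88 with the stricter filter, 28 with library totals, 33 with no filter, 9 with voom, 2 with sample weights and 9 without the mitochondrial-rich libraries. CCl4 in wild type had 494 calls with DESeq2, 442 with sample weights, 187 without those libraries and 78 with voom, CCl4 in the knockout had 1273 with the compared groups alone against 2610, untreated knockout had 328 with DESeq2 and 213 with sample weights against 128, and knockout after CCl4 had 1033 with sample weights and 555 without those libraries.

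With each library left out in turn, Gsta1 ran from 1.82 to 2.23 for CCl4 in wild type, 5.73 to 6.84 for CCl4 in the knockout, -2.78 to -2.37 for untreated knockout, 1.13 to 2.25 for knockout after CCl4 and 3.70 to 4.80 for the difference of CCl4 effects. Gsta2 ran from -0.0326 to 0.42 for CCl4 in wild type, -0.44 to 1.98 for CCl4 in the knockout, -1.95 to -1.32 for untreated knockout, -2.18 to 0.25 for knockout after CCl4 and -0.60 to 1.82 for the difference of CCl4 effects. Gsta3 ran from -0.13 to 0.0771 for CCl4 in wild type, 0.35 to 0.70 for CCl4 in the knockout, -1.42 to -1.15 for untreated knockout, -0.92 to -0.57 for knockout after CCl4 and 0.35 to 0.70 for the difference of CCl4 effects. Gsta4 ran from -0.18 to 0.0107 for CCl4 in wild type, 0.48 to 1.19 for CCl4 in the knockout, -1.24 to -0.86 for untreated knockout, -0.44 to 0.24 for knockout after CCl4 and 0.55 to 1.27 for the difference of CCl4 effects. The pair ran from 0.31 to 0.75 for CCl4 in wild type, 1.88 to 3.33 for CCl4 in the knockout, -2.01 to -1.42 for untreated knockout, -0.30 to 1.16 for knockout after CCl4 and 1.36 to 2.82 for the difference of CCl4 effects. The Gsta1 share of the pair differed by 17 to 20.9 for CCl4 in wild type, 61.2 to 74.3 for CCl4 in the knockout, -7.01 to -2.63 for untreated knockout and 37.6 to 50.7 for knockout after CCl4 in percentage points. Calls over all genes ran from 63 to 179 for CCl4 in wild type, 1666 to 3079 for CCl4 in the knockout, 89 to 152 for untreated knockout, 418 to 2216 for knockout after CCl4 and 0 to 867 for the difference of CCl4 effects. Gsta1 in untreated knockout rested on 4 to 13 counts per library.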
